A study of Mus musculus with 2 samples.

Results

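A set of 10 genes through which leukocytes stimulate or restrain lymphocytes was followed: Cd274, Pdcd1lg2, Lgals9, Pvr, Nectin2, Cd80, Cd86, Cd40, Tnfsf4 and Tnfsf9. They are 10 of the 32285 genes in the deposited matrices, taken by their symbols and read as raw UMI counts, with 1 UMI standing for 1 captured transcript molecule. Transcripts had been counted in single CD45+ leukocytes sorted from mouse tumours, in 1 library labelled Ythdf2 KO and 1 labelled WT, both from C57BL/6 mice. Ythdf2 is a reader of m6A, a methylated adenosine in mRNA, and shortens the life of the transcripts it binds. The series title speaks of the tumour's own Ythdf2, the design text of conditional knockout mice and the sample labels of knockout tumours, so which cells lost the gene is not settled by these sources. The age of the mice, the tumour line and the number of tumours behind a library are not given in the sources used here. Ythdf2 itself stood at 46.1 CPM (44.9 to 47.2) in the Ythdf2 KO library and 48.4 CPM (47.4 to 49.5) in the WT library, where CPM is a gene's UMIs per 1000000 UMIs, here of all kept barcodes and below of a class. The deleted part is not given either, and a tag outside it would check nothing.

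A T cell that meets antigen needs further signals from the presenting cell. Cd80 and Cd86 encode the B7 ligands, which activate T cells through CD28 and restrain them through CTLA-4. Cd274 and Pdcd1lg2 encode PD-L1 and PD-L2, the ligands of the inhibitory receptor PD-1, and interferon gamma is a well-known inducer of Cd274. Pvr and Nectin2 encode adhesion proteins bound by the activating receptor CD226 and the inhibitory receptor TIGIT, and Lgals9 encodes galectin-9, a lectin reported to bind TIM-3, the product of Havcr2. Cd40 is the receptor through which helper T cells license DC. Tnfsf4 and Tnfsf9 encode ligands of the costimulatory receptors made from Tnfrsf4 and Tnfrsf9. Mature DC, which have taken up antigen and turned on Ccr7, are known for carrying many of these proteins at the same time.

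Of 16312 barcodes in the Ythdf2 KO library and 20886 in the WT library, 15844 and 20415 were kept, with a median of 5617 and 5554 UMIs over all deposited barcodes. Barcodes were gated by marker UMIs into 8 myeloid classes, and no ligand gene took part in a gate. These classes held 7392 Ythdf2 KO barcodes (46.7% of those kept) and 9304 WT barcodes (45.6%). A further 19.5% and 20.5% carried markers of a second lineage and were set aside. Another 5.78% and 3.99% opened a gate but fitted no class (between gates), and 14.1% and 14.2% opened no gate. The libraries shared 101 barcode sequences, of which 50 and 38 lay in the myeloid classes. Mature DC numbered 260 and 532 cells, macrophages 2399 and 3836, monocytes 3094 and 3992, and patrolling monocytes 500 and 136. There were 953 and 603 neutrophils, 126 and 80 plasmacytoid DC, 34 and 97 cDC2, and only 26 and 28 cDC1. Markers that opened no gate were highest in their own class in both libraries, except the monocyte list in the Ythdf2 KO library, at 10301 CPM in monocytes and 10550 CPM in patrolling monocytes. Neutrophils were the shallowest myeloid class, with a median of 1832 and 2095 UMIs. Each genotype is 1 library, so no difference between genotypes below has a replicate check. The 95% intervals in parentheses cover counting error only.

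All positions are in mm10. Cd274 (ENSMUSG00000016496) lies on the plus strand at chr19:29367455-29388095, and Pdcd1lg2 (ENSMUSG00000016498) follows it at chr19:29410919-29471161, with 22823 bases between them. Cd80 (ENSMUSG00000075122, chr16:38455561-38496335, plus strand) and Cd86 (ENSMUSG00000022901, chr16:36603869-36666081, minus strand) share a chromosome at a distance of 1789479 bases. Pvr (ENSMUSG00000040511, chr7:19903578-19921160) and Nectin2 (ENSMUSG00000062300, chr7:19716644-19750483) both lie on the minus strand, 153094 bases apart. Lgals9 (ENSMUSG00000001123) lies at chr11:78962974-78984946 on the minus strand. Cd40 (ENSMUSG00000017652, chr2:165055627-165072948), Tnfsf4 (ENSMUSG00000026700, chr1:161395409-161418410) and Tnfsf9 (ENSMUSG00000035678, chr17:57105325-57107757) lie on the plus strand. All 10 are protein-coding. Cd274, Pdcd1lg2, Pvr, Nectin2 and Tnfsf9 overlap an annotated gene on the other strand, and since counting is not stated to use strand, reads of such pairs may not be separated. The values are sums over a whole gene.

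Promoter windows were found in RefSeq (GRCm38.p6) for 5 of the 10 genes: Cd274, Pdcd1lg2, Lgals9, Nectin2 and Cd80. Each window ran from 250 bases before the start to 50 after it. They were searched on both strands for 3 motifs, of which 2 are described: an interferon response motif (GAAA, any 2 bases, GAAA) and an NF-kB-type motif (GGG, any 3 bases, TTCC). No match overlapped another. Over 32851 mouse windows of the same length, 3.44% held the first and 5.56% the second. Lgals9 had 2 matches of the interferon response motif, beginning 55 bases before and 15 bases after the start, and none of the NF-kB-type motif. The other 4 windows held no match of either, which says only that these letters are not in these windows. Lgals9 and Cd274 are shown because their levels ran in different orders over the classes described next. The bases before the start are given 5′ to 3′ on the gene's strand, at chr11:78984925-78985174 (minus strand) and chr19:29367188-29367437 (plus strand), with the motif match in capitals.
Lgals9: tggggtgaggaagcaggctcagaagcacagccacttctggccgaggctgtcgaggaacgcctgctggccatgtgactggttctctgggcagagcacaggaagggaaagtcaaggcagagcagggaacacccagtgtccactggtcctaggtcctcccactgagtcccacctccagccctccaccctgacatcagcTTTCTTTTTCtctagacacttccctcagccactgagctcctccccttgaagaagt
Cd274: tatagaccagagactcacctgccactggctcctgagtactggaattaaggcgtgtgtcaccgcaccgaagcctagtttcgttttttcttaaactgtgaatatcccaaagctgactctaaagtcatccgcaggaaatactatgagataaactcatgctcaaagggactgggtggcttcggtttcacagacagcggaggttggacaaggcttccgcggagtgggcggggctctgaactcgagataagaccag
A match in letters is a description of the window and not a bound site.

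Cd274 was highest in mature DC, followed by neutrophils, in both libraries. It stood at 723 CPM (678 to 771) in Ythdf2 KO mature DC and 631 CPM (602 to 661) in WT mature DC. In neutrophils it stood at 616 CPM (583 to 651) in the Ythdf2 KO library and 462 CPM (428 to 497) in the WT library. These 2 classes stood apart from all the others. Monocytes (249 and 232 CPM), macrophages (220 and 227 CPM) and patrolling monocytes (251 and 203 CPM) lay close together at the next level. Among them the interval of the ratio of neighbours included 1, except for monocytes over macrophages in the Ythdf2 KO library, at 1.13 (1.08 to 1.18). The remaining DC lay lower, with 134 and 84.4 CPM in cDC2, 76.9 and 35.2 CPM in cDC1, and 31.2 and 29.3 CPM in plasmacytoid DC. With each cell thinned to 1000 UMIs, 47.6% of Ythdf2 KO mature DC (41.3 to 54.0) and 44.6% of WT mature DC (40.3 to 49.0) held a Cd274 UMI. The share in plasmacytoid DC, of like depth, was 3.20% and 3.90%. Without thinning, the shares in mature DC were 85.8% and 88.3%.

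Pdcd1lg2, the neighbour of Cd274, was highest in mature DC among the 8 myeloid classes, at 171 CPM (149 to 195) in the Ythdf2 KO library and 175 CPM (160 to 191) in the WT library. Mature DC exceeded macrophages by 23.6-fold (18.8 to 29.8) in the Ythdf2 KO library and 21.1-fold (17.8 to 25.1) in the WT library. Neutrophils held 21.2 and 18.4 CPM, and macrophages, monocytes and patrolling monocytes between 5.12 and 8.29 CPM. Both PD-1 ligands therefore peaked in mature DC, while only Cd274 came close to that peak in a second class, the neutrophils.

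**Figure D1:**
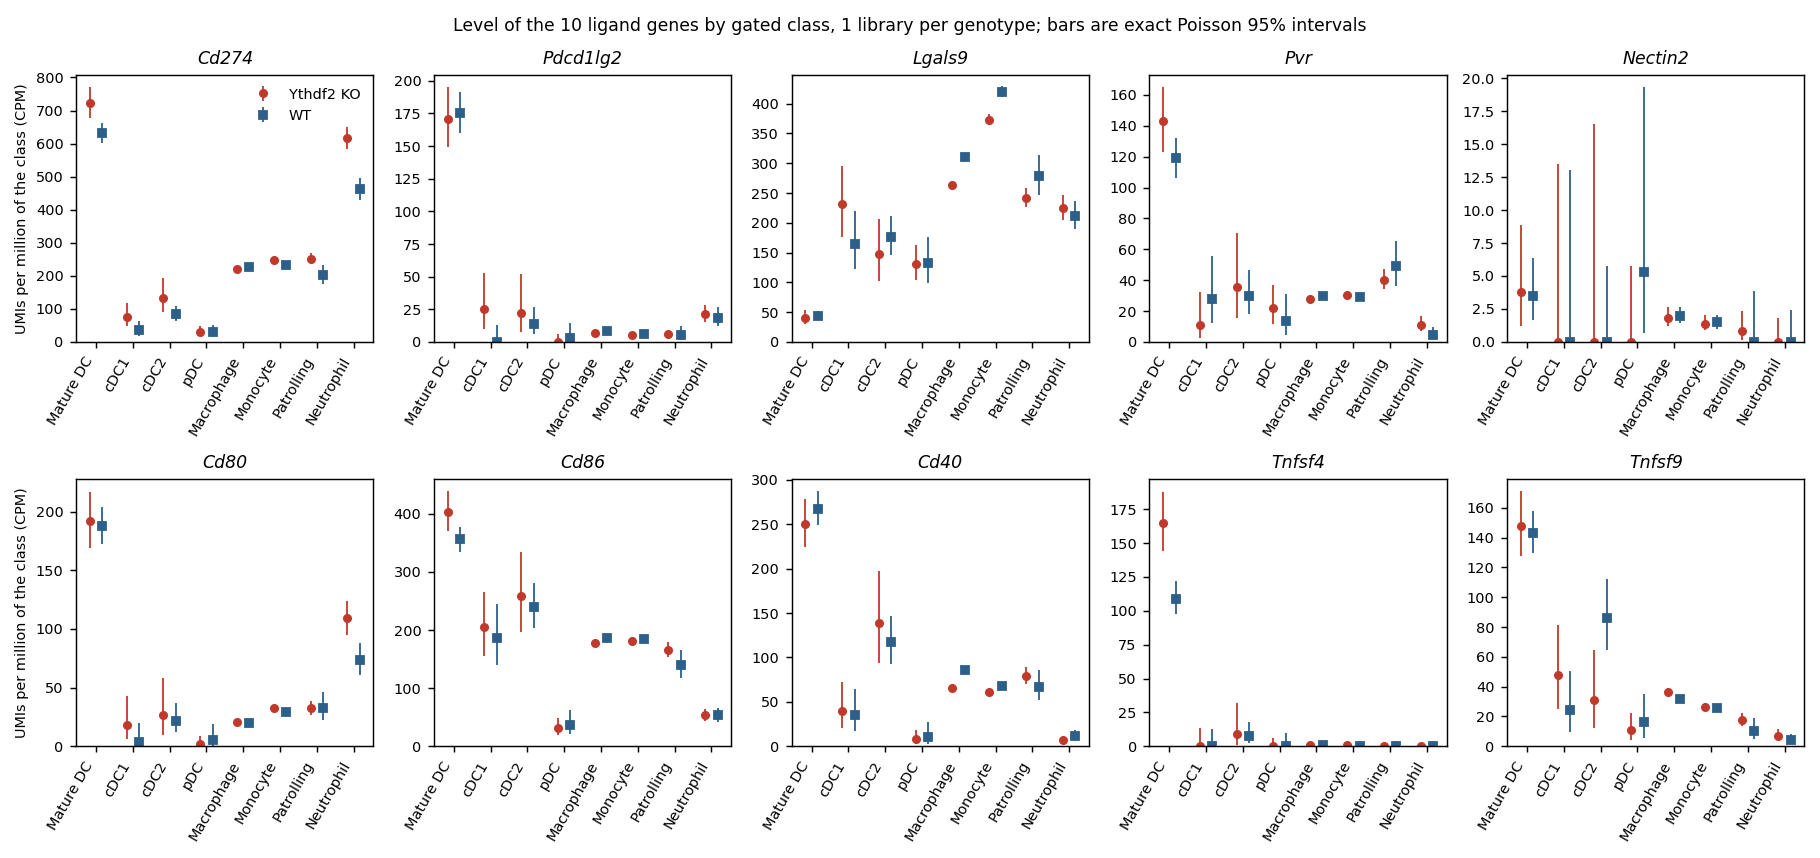
Level of each ligand gene in 8 gated classes, in CPM of the class, with circles for Ythdf2 KO, squares for WT and bars for exact Poisson 95% intervals. Mature DC hold the highest level of Cd274, Pdcd1lg2, Pvr, Cd80, Cd86, Cd40, Tnfsf4 and Tnfsf9 in both libraries, whereas Lgals9 is lowest there, at 40.9 and 43.4 CPM.

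The B7 ligands also peaked in mature DC but spread differently below it. Cd80 stood at 192 CPM (169 to 217) in Ythdf2 KO mature DC and 188 CPM (172 to 204) in WT mature DC. Neutrophils came next, with 109 CPM (95.2 to 124) in the Ythdf2 KO library and 73.5 CPM (60.5 to 88.4) in the WT library. Monocytes (32.3 and 29.5 CPM), patrolling monocytes (32.3 and 32.4 CPM) and macrophages (20.8 and 19.7 CPM) lay well below neutrophils. For Cd86 it was the antigen-presenting DC that followed mature DC. It stood at 403 CPM (370 to 439) in Ythdf2 KO mature DC and 356 CPM (335 to 378) in WT mature DC, then at 259 and 239 CPM in cDC2 and 205 and 186 CPM in cDC1. Macrophages (178 and 186 CPM) and monocytes (181 and 184 CPM) were not separable from cDC1 within counting error. Neutrophils held Cd86 at 53.5 and 53.1 CPM, a rank near the bottom, although they were second for Cd80. Thinned to 1000 UMIs, 10.5% of Ythdf2 KO neutrophils (8.59 to 12.7) and 7.94% of WT neutrophils (5.89 to 10.4) held a Cd80 UMI, against 18.6% and 14.9% unthinned. The thinned share in NK cells, which are deeper, was 0.175% and 0.145%.

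Cd40, the receptor for the helper signal, followed Cd86 more than Cd80. Its level was 250 CPM (224 to 278) in Ythdf2 KO mature DC and 267 CPM (249 to 287) in WT mature DC, and 139 and 117 CPM in cDC2. Macrophages held 65.7 and 86.2 CPM, monocytes 60.6 and 68.2 CPM, and patrolling monocytes 79.4 and 67.0 CPM. In neutrophils only 14 and 17 UMIs were counted, or 6.75 and 11.2 CPM, so this class was rich in Cd274 and Cd80 and poor in Cd40.

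Of the TNF family ligands, Tnfsf4 was nearly confined to mature DC among the 8 classes, whereas Tnfsf9 was found in all of them. Tnfsf4 stood at 165 CPM (144 to 188) in Ythdf2 KO mature DC and 109 CPM (97.5 to 122) in WT mature DC. Mature DC exceeded macrophages by 154-fold (93.9 to 269) and 151-fold (91.4 to 267), from 17 and 16 UMIs in all macrophages. No Tnfsf4 UMI was found in neutrophils, plasmacytoid DC or cDC1 of either library. Thinned to 1000 UMIs, 10.3% of Ythdf2 KO mature DC (6.85 to 14.8) and 9.62% of WT mature DC (7.22 to 12.5) held one, and the 0 of 914 Ythdf2 KO and 0 of 592 WT neutrophils allow a share of up to 0.403% and 0.621% by the exact interval, or 0.328% and 0.507% by the level of 3 cells. Tnfsf9 reached 148 CPM (128 to 171) in Ythdf2 KO mature DC and 143 CPM (130 to 158) in WT mature DC, 36.1 and 32.0 CPM in macrophages, 26.5 and 25.9 CPM in monocytes, and 7.23 and 3.94 CPM in neutrophils. Its place in cDC2 differed between the libraries, as described below.

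Pvr, one of the nectin-like ligands, was again highest in mature DC, with 143 CPM (123 to 165) in the Ythdf2 KO library and 119 CPM (106 to 132) in the WT library. Patrolling monocytes were second, at 40.4 CPM (34.2 to 47.4) and 49.2 CPM (36.1 to 65.4), not separable from cDC2 within counting error, and macrophages and monocytes lay between 27.6 and 30.6 CPM. Nectin2 was close to undetected in the sorted leukocytes, with 188 UMIs in all kept Ythdf2 KO barcodes and 191 in all kept WT barcodes. It did not exceed 5.33 CPM in any myeloid class, and neutrophils, cDC1 and cDC2 had no UMI of it in either library. The 0 UMIs in neutrophils allow up to 1.78 and 2.42 CPM by the exact interval, so absence of Nectin2 transcripts cannot be shown at this depth.

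Lgals9 was the only ligand of the group with its lowest level in mature DC. It was highest in monocytes, at 373 CPM (365 to 383) in the Ythdf2 KO library and 420 CPM (411 to 429) in the WT library, followed by macrophages at 263 CPM (255 to 271) and 310 CPM (303 to 318). Patrolling monocytes held 242 and 278 CPM and neutrophils 225 and 212 CPM. Mature DC held the lowest level of the 8 classes, 40.9 CPM (30.7 to 53.3) and 43.4 CPM (36.2 to 51.7), which is 0.156 (0.117 to 0.203) and 0.140 (0.116 to 0.167) of that in macrophages. The other DC held more Lgals9 than mature DC, with 231 and 165 CPM in cDC1, 148 and 177 CPM in cDC2, and 131 and 133 CPM in plasmacytoid DC, which ranked just above mature DC. Across the 16 points of class and library, log2(CPM + 1) of Lgals9 and Tnfsf4 had a Pearson r of -0.81, its most negative value. With the other ligands the r of Lgals9 lay between -0.55 (Tnfsf9) and -0.14 (Cd274). Points of 1 library share that library, so this is a description.

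Single mature DC carried several of the ligands at a time. Thinned to 2000 UMIs, Ythdf2 KO mature DC held UMIs of 2.71 of the 10 genes on average, and WT mature DC held 2.75. At least 3 of the genes were seen in 55.2% of Ythdf2 KO mature DC and 56.0% of WT mature DC, and none in 3.91% and 3.41%. Monocytes averaged 1.36 and 1.40 genes and macrophages 1.25 and 1.33. Neutrophils averaged 1.19 genes in the Ythdf2 KO library and 0.907 in the WT library, from the 389 and 332 cells deep enough. Plasmacytoid DC had the fewest of the myeloid classes, 0.372 and 0.493, and NK cells held 0.529 and 0.477.

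**Figure D2:**
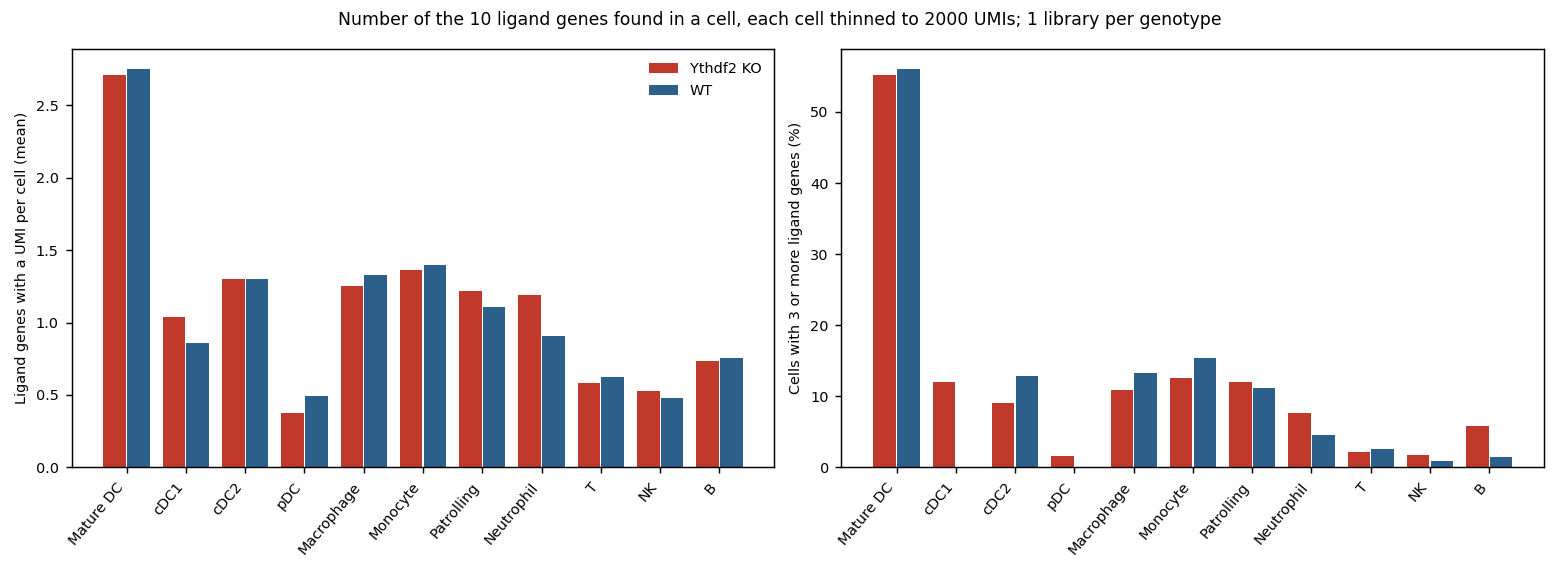
Mean number of the 10 ligand genes with a UMI per cell (left) and share of cells with 3 or more of them (right), by class, after thinning each cell to 2000 UMIs, with Ythdf2 KO left of WT. Mature DC stand apart at 2.71 and 2.75 genes per cell, and no other class exceeds 1.40.

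Although mature DC held the highest levels, they were few, so most UMIs of most ligands came from other barcodes. Mature DC contributed 3.47% of all Cd274 UMIs in the Ythdf2 KO library and 5.95% in the WT library, whereas monocytes contributed 16.2% and 16.3% and macrophages 12.7% and 16.2%. For Tnfsf4 the mature DC share was 19.6% and 20.4%, and NK cells gave 18.0% and 19.6%. For Pdcd1lg2 NK cells gave more UMIs than mature DC, 20.9% and 23.8% against 5.61% and 8.59%. Barcodes with a second lineage held 38.8% and 40.0% of Cd274 UMIs, close to their 43.9% and 43.7% of all UMIs. The summed level over all kept barcodes depends on these shares. For the ratios at WT shares that follow, barcodes of a second lineage, between gates and in no gate each counted as a class. The make-up inside these 3 sets was not held at that of WT. Second-lineage barcodes held 50.8% of Tnfsf4 UMIs in the Ythdf2 KO library and 48.2% in the WT library. For Tnfsf4 the ratio of Ythdf2 KO over WT was 0.907 (0.839 to 0.981) over all kept barcodes and 1.12 once each class was given the UMI share it has in WT. Pdcd1lg2 moved in the same sense, with a ratio of 0.864 (0.830 to 0.899) over all kept barcodes and 0.977 at WT shares. Mature DC took 0.993% of UMIs in the Ythdf2 KO library and 1.72% in the WT library, and NK cells 8.20% and 12.6%. The ratio of Cd274 was 1.13 (1.11 to 1.15) and 1.09 at WT shares, and that of Cd80 was 1.17 (1.11 to 1.23) and 1.13. Cd40 stayed below 1 either way, at 0.869 (0.842 to 0.898) and 0.853, as did Lgals9, at 0.929 (0.915 to 0.943) and 0.890.

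Within classes, few ligands differed between the libraries by as much as 1.5-fold. A gene was counted in a class where it had at least 50 UMIs over both libraries, which 47 of the 80 pairs of ligand and class did. Of these, 3 were at least 1.5-fold higher in the Ythdf2 KO library and 1 at least 1.5-fold lower. Over all genes counted in the 8 classes, 3.64% of gene-by-class pairs were that much higher and 5.19% that much lower, so the ligand counts lie near the background. The median log2 ratio of the 47 pairs was 0.03, beside medians of all genes between -0.07 and 0.02 in the 8 classes. The other 33 pairs had too few UMIs, among them 9 of 10 in plasmacytoid DC and 8 of 10 in cDC1. Among all genes counted in plasmacytoid DC, 5.65% were at least 1.5-fold higher and 6.96% lower. In cDC1 these shares were 8.03% and 5.89%.

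**Figure D3:**
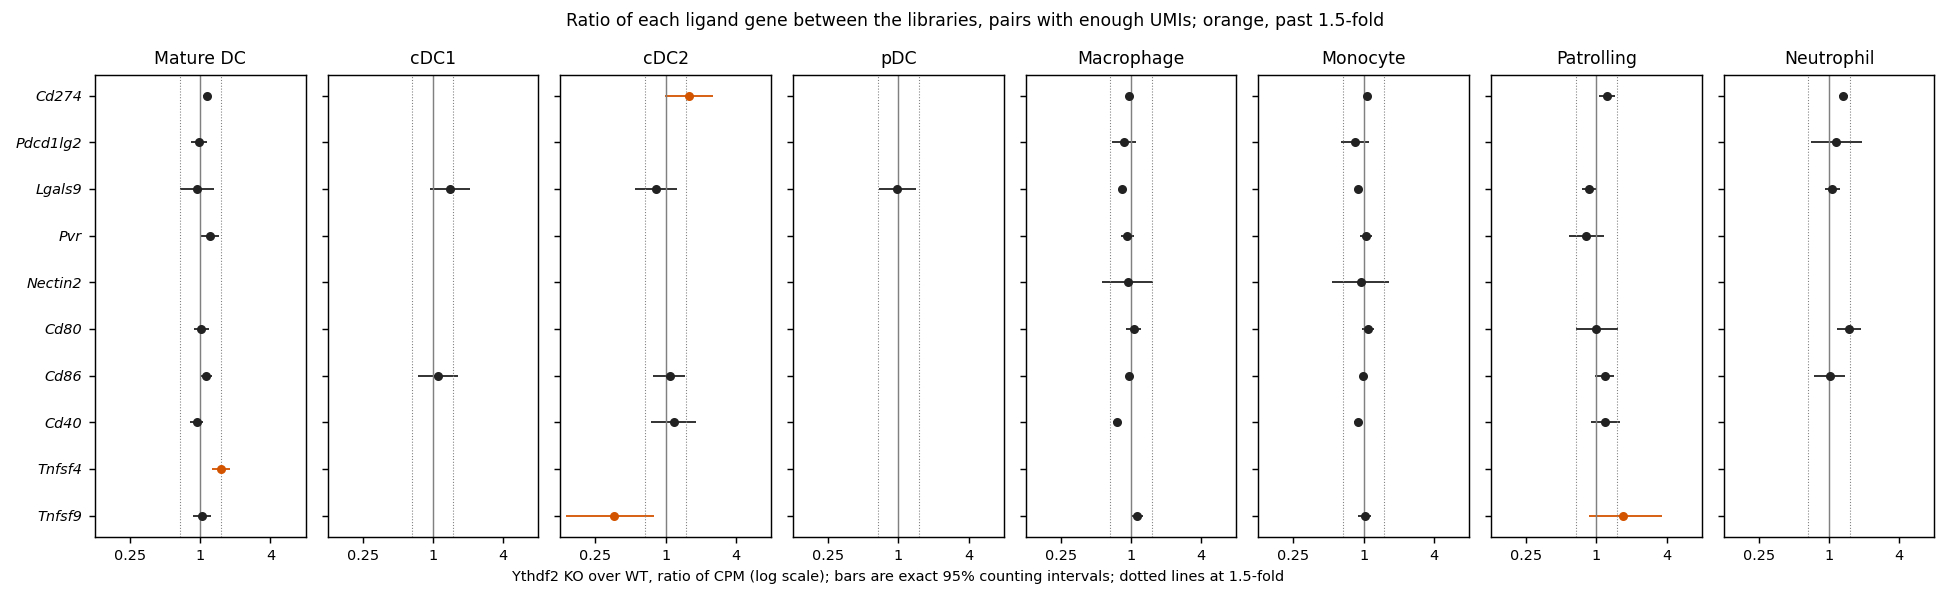
Ratio of Ythdf2 KO over WT for each ligand gene in each class on a log axis, for pairs with at least 50 UMIs, with exact 95% counting intervals and dotted lines at 1.5-fold in either direction. The 4 pairs past a dotted line are in orange: Tnfsf4 in mature DC (1.51), Cd274 in cDC2 (1.59), Tnfsf9 in patrolling monocytes (1.68) and Tnfsf9 in cDC2 (0.364).

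In mature DC, Tnfsf4 was higher in the Ythdf2 KO library, with 218 UMIs and 165 CPM against 317 UMIs and 109 CPM in the WT library, a ratio of 1.51 (1.27 to 1.80). In this class 3.51% of all 6091 genes counted were at least 1.5-fold higher and 5.81% lower. The ratio lay between 1.13 and 1.53 over the 11 settings run, always above 1 and past 1.5-fold in 5 of them. These 5 include the reported setting and the one without a UMI minimum, which repeats the reported ratio. It was 1.13 when barcodes with a second lineage were kept. That setting also kept the barcodes between gates, and gave each to the class with the highest marker sum relative to its minimum. It is called second-lineage barcodes kept below. The shares of mature DC with a Tnfsf4 UMI had overlapping intervals, at 1000 UMIs as given above and at 2000 UMIs with 20.4% (15.4 to 26.2) and 16.3% (13.1 to 19.8). The other 8 ligands counted in mature DC had ratios between 0.934 for Cd40 and 1.21 (1.00 to 1.44) for Pvr. For Cd274 the ratio was 1.15 (1.06 to 1.24) and for Cd86 1.13 (1.02 to 1.26), but both were under 1, at 0.924 and 0.911, when second-lineage barcodes were kept. The genes of the NF-kB pathway, which acts downstream of CD40, gave no call in mature DC: none of 10 was past 1.5-fold, and Relb stood at 544 and 554 CPM. None of the 10 genes of the interferon gamma list was past 1.5-fold there either.

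In neutrophils, Cd274 and Cd80 had ratios above 1 that stayed short of 1.5-fold. Cd274 counted 1278 UMIs in 953 Ythdf2 KO cells and 704 UMIs in 603 WT cells, a ratio of 1.33 (1.22 to 1.46). Cd80 counted 226 and 112 UMIs, a ratio of 1.48 (1.18 to 1.88). Over the 11 settings these ratios lay between 1.18 and 1.37 and between 1.32 and 1.65. Of 4430 genes counted in neutrophils, 4.49% were at least 1.5-fold higher and 6.93% at least 1.5-fold lower, and the median log2 ratio was -0.04. At 1000 UMIs per cell the shares of neutrophils with Cd274 overlapped, 31.5% (28.5 to 34.6) in the Ythdf2 KO library and 28.9% (25.3 to 32.7) in the WT library. At 2000 UMIs they did not, at 47.0% (42.0 to 52.1) and 34.3% (29.2 to 39.7), but 564 of 953 and 271 of 603 cells were too shallow to enter. The summed markers of mature DC stood at 7.23 and 17.7 CPM in neutrophils, against 6546 and 5426 CPM in mature DC themselves. This low sum is partly set by the gate, since barcodes that opened the mature DC gate were not taken as neutrophils. Lgals9 (1.06, 0.920 to 1.23) and Cd86 (1.01, 0.749 to 1.36) had ratios near 1 in the same cells.

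Of the 10 listed genes of the interferon gamma response, 2 were at least 1.5-fold higher in Ythdf2 KO neutrophils and 1 at least 1.5-fold lower, beside the 4.49% and 6.93% of all genes in this class. Cxcl9, a chemokine of the interferon response, stood at 85.3 CPM in Ythdf2 KO neutrophils and 7.87 CPM in WT neutrophils, a ratio of 10.8 (6.05 to 21.4). Macrophage markers, of a class that also makes Cxcl9, summed to 112 CPM in neutrophils of either library. The neutrophil gate itself limits these markers, and the part of macrophage RNA in the Cxcl9 value was not tested. Cxcl10, a related chemokine, stood at 1621 and 1053 CPM, a ratio of 1.54 (1.45 to 1.63). Irf8, a transcription factor of the myeloid lineage, was the lower one, at 55.9 and 88.5 CPM. Irf1, a transcription factor of the interferon response, had a ratio of 1.12 (1.02 to 1.24). A split of the neutrophils by a Cxcl10 UMI, chosen after these values were seen, placed Cd274 higher in cells with one. In the Ythdf2 KO library it stood at 657 CPM in the 386 cells with Cxcl10 and 582 CPM in the 567 cells without, and in the WT library at 557 CPM in 205 cells and 403 CPM in 398 cells. Thinned to 1000 UMIs, the ratio of cells with over cells without was 1.21 (1.01 to 1.44) in the Ythdf2 KO library and 1.52 (1.19 to 1.94) in the WT library. The unthinned Ythdf2 KO level of Cd274 lay above the WT level in cells with and without Cxcl10. No interval was made for these differences between libraries. The part of Cxcl10 cells in the Cd274 ratio between the libraries was not tested. For Lgals9 the thinned ratios of the same split were 1.35 (1.00 to 1.81) and 1.93 (1.33 to 2.80), although its ratio between the libraries was near 1. Cd80 had unthinned ratios of 1.36 (1.04 to 1.78) in the Ythdf2 KO library and 0.703 (0.455 to 1.06) in the WT library. Thinned, its ratios were 1.10 (0.718 to 1.66) and 0.765 (0.378 to 1.45), with both intervals including 1. Cd86 had thinned ratios of 1.05 (0.480 to 2.19) and 1.44 (0.593 to 3.28).

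In macrophages, Cd40 and Lgals9 had ratios below 1 with intervals that did not reach 1, again short of 1.5-fold. Cd40 counted 1042 and 1903 UMIs, or 65.7 CPM (61.8 to 69.8) in Ythdf2 KO macrophages and 86.2 CPM (82.4 to 90.2) in WT macrophages, a ratio of 0.762 (0.706 to 0.822). Lgals9 had a ratio of 0.846 (0.814 to 0.880). Over the 11 settings Cd40 lay between 0.728 and 0.797 and Lgals9 between 0.844 and 0.885. The median log2 ratio of all 10970 genes counted in macrophages was -0.07, and 2.22% were past 1.5-fold higher and 4.27% lower. Cd274 (0.971, 0.930 to 1.01) and Cd86 (0.959, 0.914 to 1.01) had intervals that included 1. Tnfsf9 had a ratio above 1, at 1.13 (1.01 to 1.26). Monocytes showed the same pair below 1, Cd40 at 0.888 (0.821 to 0.961) and Lgals9 at 0.889 (0.862 to 0.918), while Cd274 had a ratio of 1.07 (1.03 to 1.12). In monocytes 1.84% of all genes counted were at least 1.5-fold higher and 4.05% lower. Neutrophil markers summed to 587 and 327 CPM in the same monocytes, and their part in the Cd274 value was not tested.

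The make-up of the macrophage gate differed between the libraries, so 5 of the ligands were also read within macrophage states, which were chosen with these data in view. Cells with a UMI of Arg1, the arginase of alternatively activated macrophages, made up 20.3% of Ythdf2 KO macrophages and 39.3% of WT macrophages. Cells with Cxcl9 made up 22.4% and 18.3%, and cells with Mrc1, a mannose receptor, 39.8% and 29.9%. These shares, and the strata, are unthinned, and macrophages were deeper in the Ythdf2 KO library (median 5572 UMIs) than in the WT library (4923). Thinned to 2000 UMIs, Arg1 was seen in 314 of 2235 Ythdf2 KO and 1036 of 3556 WT macrophages. At that depth Cxcl9 was seen in 356 and 485 of them, and Mrc1 in 517 and 603. The 6 strata come from splitting the same cells by each gene in turn. They share cells, so their agreement is not independent and follows in part from the ratio of the whole gate. In each of the 6 strata Cd40 had a ratio of Ythdf2 KO over WT below 1, from 0.716 (0.650 to 0.787) in cells without Cxcl9 to 0.803 (0.707 to 0.912) in cells with Mrc1. The same was true of Lgals9, from 0.777 (0.718 to 0.840) in cells with Cxcl9 to 0.870 (0.832 to 0.909) in cells without it. For Cd274 the 6 ratios lay between 0.922 and 1.04, and for Cd86 between 0.927 and 1.01. Tnfsf9 went the other way, with ratios above 1 in all 6 strata, from 1.05 (0.824 to 1.33) in cells with Cxcl9 to 1.26 (1.04 to 1.53) in cells with Arg1. Its interval excluded 1 only in cells with Arg1 and in cells without Cxcl9 (1.16, 1.02 to 1.32).

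Across states, Cd274 and Cd40 were higher in macrophages with Cxcl9 in both libraries. Cd274 stood at 293 CPM in Ythdf2 KO macrophages with Cxcl9 and 193 CPM in those without, a ratio of 1.52 (1.42 to 1.63), and at 289 and 209 CPM in the WT library, 1.38 (1.30 to 1.47). Cd40 stood at 95 and 54.8 CPM in the Ythdf2 KO library, 1.73 (1.53 to 1.97), and at 121 and 76.5 CPM in the WT library, 1.59 (1.44 to 1.75). Cells with Cxcl9 were deeper, with medians of 6480 UMIs against 5379 in those without in the Ythdf2 KO library, and 5663 against 4793 in the WT library. With all cells thinned to 2000 UMIs the ratios were 1.5 and 1.53 for Cd274 and 1.86 and 1.89 for Cd40, in the Ythdf2 KO and WT libraries. Lgals9, by contrast, had unthinned ratios of 0.956 (0.891 to 1.02) and 1.07 (1.01 to 1.13). Thinned to 2000 UMIs, its ratios were 0.803 (0.671 to 0.956) in the Ythdf2 KO library and 0.965 (0.846 to 1.10) in the WT library. Macrophages with Mrc1 over those without had a Cd40 ratio of 0.756 (0.667 to 0.857) and 0.736 (0.666 to 0.813).

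**Figure D4:**
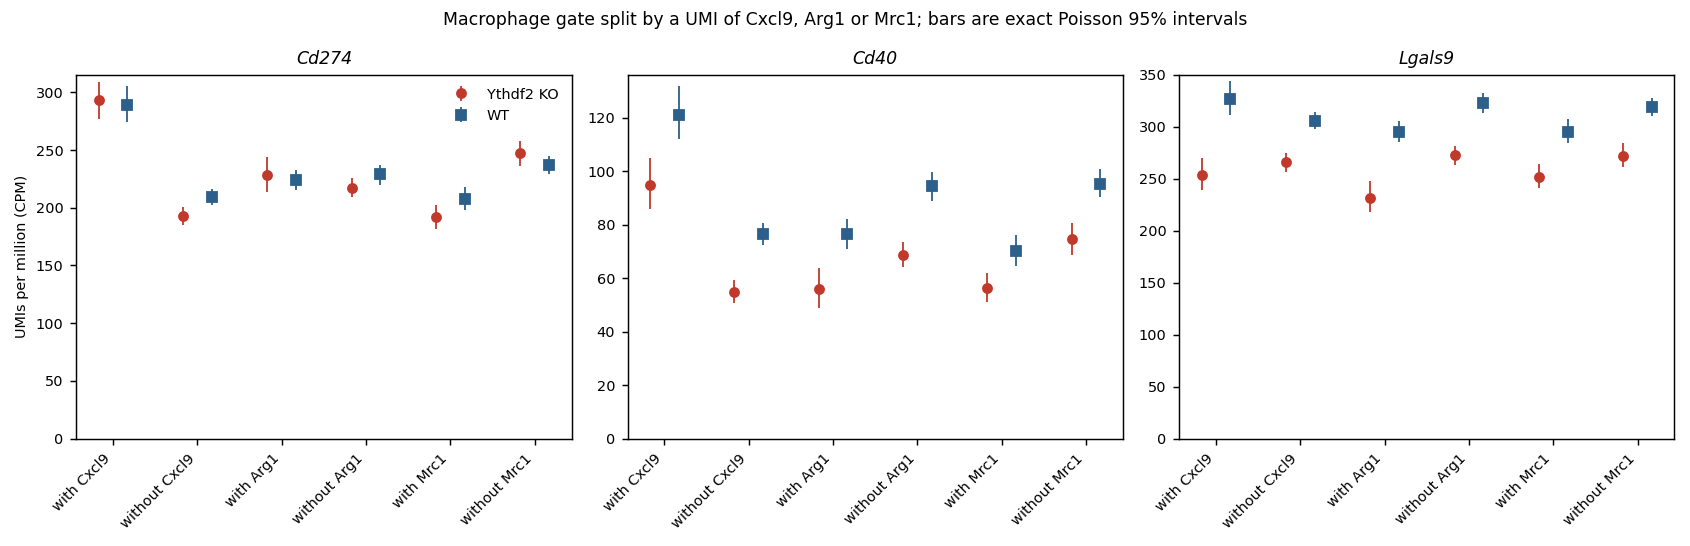
Level of Cd274, Cd40 and Lgals9 in macrophages with and without a UMI of Cxcl9, Arg1 or Mrc1, in CPM, with circles for Ythdf2 KO, squares for WT and exact Poisson 95% intervals. Cd40 and Lgals9 lie lower in Ythdf2 KO than in WT in all 6 strata, while Cd274 shows ratios between 0.922 and 1.04. The strata split the same cells by each gene in turn and are not independent.

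In patrolling monocytes, which survey vessel walls, Tnfsf9 was at least 1.5-fold higher in the Ythdf2 KO library, at 17.6 CPM from 65 UMIs against 10.5 CPM from 10 UMIs in the WT library. The ratio of 1.68 (0.860 to 3.68) has an interval that includes 1, and 5.20% of all genes counted in this class were that much higher. Cd274 had a ratio of 1.24 (1.06 to 1.45) there, and 1.05 when every gate was opened by 1 UMI. The gate rests on Ace, Adgre4 and Treml4 and passed 500 Ythdf2 KO cells and 136 WT cells. Barcodes that also opened the monocyte gate could enter it. The monocyte markers that opened no gate summed to 10550 CPM here in the Ythdf2 KO library and 8904 CPM in the WT library. In monocytes they summed to 10301 and 10009 CPM. The part of such barcodes in these ratios was not tested.

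The cDC2 class rests on 34 Ythdf2 KO cells and 97 WT cells, and its calls moved with the gate. Cd274 was higher, at 134 CPM (90.5 to 192) in the Ythdf2 KO library and 84.4 CPM (63.4 to 110) in the WT library, a ratio of 1.59 (0.982 to 2.53). With 1 UMI more asked of every gate the ratio was 0.693. Tnfsf9 was lower, at 31.3 CPM from 7 UMIs and 86.0 CPM from 55 UMIs, a ratio of 0.364 (0.140 to 0.802). With second-lineage barcodes kept it was 1.02. Among 2306 genes counted in cDC2, 7.55% were at least 1.5-fold higher and 7.07% at least 1.5-fold lower. Neither of the 2 ligands counted in cDC1, Lgals9 and Cd86, was past 1.5-fold.

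The binding partners of these genes were read in gated T cells (773 and 1024 cells) and NK cells (1143 and 2072 cells). They are receptors, except that the partner of Cd40, itself a receptor, is a ligand. Of 10 partner genes counted in T cells, with that ligand among them, 1 was at least 1.5-fold higher in the Ythdf2 KO library and none lower, beside 1.72% and 4.23% of all genes there. This was Havcr2, the TIM-3 gene, at 57.1 CPM in Ythdf2 KO T cells and 37.9 CPM in WT T cells, a ratio of 1.51 (1.28 to 1.78). Pdcd1, the PD-1 gene, had a ratio of 1.32 (1.14 to 1.53) in T cells, and Cd28 of 0.931 (0.855 to 1.01). In NK cells 2 of 10 were higher and 1 lower, beside 1.77% and 2.96% of all genes. Pdcd1 stood at 9.81 and 6.06 CPM, a ratio of 1.62 (1.24 to 2.11), and Cd226, the activating receptor of Pvr and Nectin2, at 17.1 and 11.1 CPM, a ratio of 1.54 (1.26 to 1.87). Tnfrsf4, the receptor of the Tnfsf4 product, was lower, at 1.56 and 3.71 CPM from 17 and 79 UMIs. Tnfrsf9 had ratios near 1 in both, at 665 and 674 CPM in NK cells and 446 and 417 CPM in T cells.

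Among 16 other ligand genes of the B7, TNF and checkpoint families, 70 pairs of gene and class were counted, and 5 were at least 1.5-fold higher and 2 lower, beside 3.64% and 5.19% of all gene-by-class pairs. Vsir, which encodes the inhibitory ligand VISTA, gave both lower ones. It stood at 129 CPM in Ythdf2 KO neutrophils and 208 CPM in WT neutrophils, a ratio of 0.621 (0.526 to 0.733), and at 57.7 and 109 CPM in plasmacytoid DC, a ratio of 0.527 (0.329 to 0.843). The higher ones were Nectin1 in monocytes (1.73, 1.29 to 2.32) and patrolling monocytes (1.63, 0.854 to 3.41), Tnfsf15 in mature DC (1.73, 1.04 to 2.87), Cd48 in cDC1 (1.55, 0.988 to 2.45) and Ceacam1 in plasmacytoid DC (1.57, 0.910 to 2.81). Over all 8 classes the interferon gamma list had 71 pairs counted, 6 higher and 1 lower, and the NF-kB list 68 pairs, 1 higher and 5 lower, to be read beside the same 3.64% and 5.19%. In cDC1, 3 of the 4 NF-kB genes counted were lower, among them Nfkbia, the inhibitor of NF-kB, at 114 and 281 CPM from 31 and 80 UMIs, in a class where 5.89% of all genes counted were lower.

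To see which genes followed the same order over the classes, each ligand was compared with 8295 genes over the 16 points of class and library, as a description. The closest pairs of ligands were these: Cd274 with Cd80, and Cd86 with Cd40, each at a Pearson r of 0.95. Cd274 was most like Ogfrl1 (r = 0.960) and to Fas (0.955), a death receptor of the TNF receptor family. Cd86 was most like Ahcyl2 (0.970) and Tnip2 (0.964). For Tnfsf4 the most alike were Ccl22 (0.946), itself a marker of the mature DC gate, and Relb (0.938), an NF-kB subunit. Pdcd1lg2 was most like Mir155hg (0.935), the host gene of a microRNA of activated leukocytes, and Stat4 (0.927). Lgals9 was most like Pstpip1 (0.935), Zfp36l2 (0.932) and Fos (0.928). Pvr was most like Myo1c (0.952), Tnfsf9 most like Zfp451 (0.95), and Nectin2, with 149 UMIs in these classes, reached 0.814 with Fbxo6.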

How the data were processed

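The deposited values are UMI counts for each gene in each barcode, not normalized, per the file headers and the whole numbers in them. Cell Ranger 5.0.1, build mm10 and Seurat 4.0.4 are named in the submitters' processing notes, while the file headers name Cell Ranger 6.1.1, a conflict the sources used here do not settle. The labels describe a 5′ kit. Counting is not stated to use strand.

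A barcode was kept if it had 200 or more genes, 500 or more UMIs and no more than 10% of its UMIs from mitochondrial genes. Each was assigned by summed marker UMIs. The minimum was 6 for mature DC (Ccr7, Fscn1, Ccl22, Cacnb3, Nudt17, Il4i1), 2 for cDC1 (Xcr1, Clec9a), 3 for cDC2 (Cd209a, Clec10a, Flt3, Mgl2) and 4 for plasmacytoid DC (Siglech, Ccr9, Klk1, Cox6a2). It was 8 for macrophages (C1qa, C1qb, C1qc), 8 for monocytes (Ly6c2, Vcan, Chil3, F10) and 3 for patrolling monocytes (Ace, Adgre4, Treml4). Neutrophils needed 3 UMIs of Retnlg, Cxcr2, G0s2, Mmp9, Hdc and Mrgpra2b together and 20 of S100a8 and S100a9. DC and lymphocyte barcodes could hold at most 2 UMIs of Vcan, Chil3 and F10. Barcodes that opened gates of a second lineage were set aside, doublets of unlike cells among them. Removal of the 8% highest Scrublet scores was an alternative. These UMI limits were set after marker distributions and cell numbers had been seen. The members, gene lists and alternatives were chosen with earlier results of these data known.

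UMIs were summed per class and divided by the class total (CPM). Levels carry exact Poisson 95% intervals, shares of cells exact Clopper-Pearson intervals, and ratios of Ythdf2 KO over WT exact conditional binomial intervals. All of them cover counting error only. With 1 library per genotype no test was made. A gene was counted in a class with at least 50 UMIs over both libraries, and called past 1.5-fold. For shares, each cell was thinned to 1000 UMIs, or to 2000 where stated. The ratios and intervals were tested on simulated counts. The genes most like a member were the 3 with the highest Pearson r of log2(CPM + 1), among genes with at least 500 UMIs. Scripts ran in Python 3.11.15 with scanpy 1.11.5, pandas 2.3.3, scipy 1.17.1, numpy 2.4.6 and, for plots, matplotlib 3.10.9. Promoter windows came from RefSeq, build GRCm38.p6, and gene positions from the reference annotation of the same build. A gene of the lists and a motif are not reported here.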

Additional observations from a re-analysis of the deposited data

Results flagged for a closer look

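Tnfsf9, the ligand of the receptor from Tnfrsf9, was past 1.5-fold in opposite directions in 2 classes. The ratio of Ythdf2 KO over WT was 0.364 in cDC2, from 7 and 55 UMIs, and 1.68 in patrolling monocytes, from 65 and 10 UMIs. The difference between these classes was not tested, since each genotype is 1 library. The value in cDC2 was 1.02 with second-lineage barcodes kept, and the interval in patrolling monocytes included 1.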

How the results depend on the processing

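No paired analysis was possible because each genotype is 1 library. The 10 alternatives changed gates, doublet handling, filters, scaling or the UMI minimum. The count of ligand and class pairs at least 1.5-fold higher in the Ythdf2 KO library was 3 as reported, 0 with 1 UMI more for every gate, 1 with 1 UMI fewer, and 11 of 69 pairs without a minimum of UMIs. The count at least 1.5-fold lower was 1 as reported, 0 with second-lineage barcodes kept and 4 without a minimum of UMIs. Without that minimum 13.7% and 15.7% of all gene-by-class pairs were past the same fold, higher and lower. Of 468 ratios of single pairs under the alternatives, 454 lay within the interval of the reported ratio, 12 lay outside it, and 2 called ratios passed to the other side of 1: Cd274 in cDC2, 0.693 with 1 UMI more for every gate, and Tnfsf9 in cDC2, 1.02 with second-lineage barcodes kept. The cause was not tested. Only the called pairs were checked for passing 1 in this count. Ratios that were not called passed 1 too, many of them inside their interval, such as Pvr in mature DC, between 0.942 and 1.21. The alternative without a UMI minimum leaves each ratio already counted as reported, so those ratios lie within the interval by construction. The difference in the share of monocytes with a Lgals9 UMI, Ythdf2 KO minus WT, changed sign without thinning, to 1.20 percentage points. With the 8% highest Scrublet scores removed, the ratios at WT class shares stayed within the counting error of the reported ones for all 10 genes. The cDC1, cDC2 and plasmacytoid DC values rest on few cells and those of Nectin2 on few UMIs, and depth per cell limits the shares in neutrophils.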

Other observations

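Outside the myeloid classes, NK cells held 2 of the ligands above their level in every myeloid class except mature DC. Pdcd1lg2 stood at 77.3 CPM (72.2 to 82.7) in Ythdf2 KO NK cells and 66.0 CPM (62.6 to 69.5) in WT NK cells, from 843 and 1405 UMIs, and at 47.7 and 45.3 CPM in T cells. Tnfsf4 stood at 18.3 CPM (15.9 to 21.1) in Ythdf2 KO NK cells and 14.3 CPM (12.7 to 16) in WT NK cells, not separable within counting error from cDC2, with 2 and 5 UMIs. The mature DC markers summed to 8.35 and 8.78 CPM in NK cells. Barcodes that opened the mature DC gate could not enter the NK gate, so this low sum is partly set by the gate. When NK cells were split by a UMI of Gzmc, a granzyme, Tnfsf4 was 1.92-fold (1.02 to 4.07) and 5.11-fold (1.98 to 18.9) higher in cells with Gzmc, from only 10 and 4 UMIs in cells without it, and Pdcd1lg2 had ratios of 1.03 (0.815 to 1.33) and 0.900 (0.733 to 1.12). NK cells with Gzmc were deeper, with a median of 9973 and 10456 UMIs, against 3537 and 3594 without. This split was chosen after the NK levels were seen.

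The sort also passed a few barcodes rich in markers of non-leukocytes, 35 in the Ythdf2 KO library and 1 in the WT library with at least 20 such UMIs. In the 35 Ythdf2 KO barcodes Nectin2 stood at 19.3 CPM (11.4 to 30.5), above its level in any myeloid class, and Pvr at 36.5 CPM (25.3 to 51.0), while Pdcd1lg2, Cd80 and Tnfsf4 had no UMI. These barcodes held 957 UMIs of Rhox5 and 59 of Ptprc, the CD45 gene. Rhox5 is among the markers by which the barcodes were picked, so its count follows in part from that choice.

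In the T cell gate, Cd80 had a ratio of Ythdf2 KO over WT of 2.03 (1.20 to 3.49), from 40 and 25 UMIs, and Cd40 of 0.634 (0.440 to 0.902), from 49 and 98 UMIs. The macrophage markers summed to 45.7 and 52.4 CPM in the same T cells, and their part in these values was not tested.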
